A study of Mus musculus with 2 samples.

Results

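The 41 genes described here belong to the cell division cycle and were followed through the cell classes found in single-cell libraries of mouse muscle after nerve crush. Of these, 17 act in DNA replication and 24 in mitosis. They are rows of a table of 32287 genes, they were named by symbol and not by their levels, and each symbol was found once. The cells came from hind limb muscle of male C57BL/6J mice aged 10 to 16 weeks, 7 days after crush of the peroneal nerve, and were profiled by single-cell RNA-Seq in 2 libraries. Both arms received 2 μg of antibody in 10 μL into the tibialis anterior muscle at injury and every 2 days thereafter: a goat anti-mouse IgG in the control arm (IgG), or a goat antibody that neutralizes secreted phosphoprotein 1 (SPP1-nAb). The study's methods describe these mice as S100GFP-tg, which carry EGFP under the S100B promoter, and name wild-type C57BL/6J mice for the sciatic crush experiments. The labels call both libraries S100GFP-positive, although the sort described in the methods collected both GFP+ and GFP- live cells. The labels name tibialis anterior (TA) and gastrocnemius (GTN) muscle, whereas the paper's results text names TA muscle alone for this experiment. Animals were pooled, their number is not given in the sources used here, and each arm is 1 library. No difference between the arms therefore has a replicate check, no test was made, and every interval below is a 95% interval that covers counting error only.

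Cells that divide copy their DNA in S phase and separate the copies in mitosis. Before S phase the MCM proteins are loaded on origins by CDC6 and related factors, and CDC45 and GINS turn them into the active helicase, while ribonucleotide reductase and thymidylate synthase supply nucleotides and PCNA clamps the polymerase to its template. Mitosis is driven by CDK1 with the A- and B-type cyclins, and spindle kinesins, Aurora and Polo kinases and centromere proteins move the chromosomes. These transcripts rise and fall with the cycle, so that cells caught in S phase or in G2 and M hold many of them together. In injured muscle, satellite cells, fibro-adipogenic progenitors, Schwann cells and tissue macrophages are all known to be able to divide, whereas mature neutrophils are not.

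The libraries held 23779 (IgG) and 25069 (SPP1-nAb) barcodes with a median of 3783 and 4722 unique molecular identifiers (UMIs, 1 per captured transcript molecule). Where a pair of values is given, IgG stands first. After filters, 21047 and 22282 cells were kept, and 163 barcode sequences occurred in both libraries. Each cell was placed in a class when it held at least 3 of 10 markers of that class and at least 2 more than of any other class. Markers were checked in every class but B cells and mast cells, which held at most 5 cells per library. In each library, every checked marker present in the table was at least 1.5-fold higher in its class than in the other cells. None was at 0, and the gate makes both likely. Cells that led by exactly 2 markers, the smallest lead allowed, were 5.38% and 4.43% of phagocytes but 55.9% and 57.8% of myogenic cells and 61.0% and 53.9% of cDC2. A rough free-RNA estimate in 10 classes was the level of other classes' marker lists in a class over that in all kept cells, as the median over lists. It ran from 7.68% in cDC1 to 34.2% in cDC2 of IgG, and from 11.3% in interferon phagocytes to 53.8% in T or NK cells of SPP1-nAb. Doublets and markers that classes share, such as Flt3, also add to it, so it is not a measured part of the UMIs. Cells whose markers pointed to several classes, 6.15% and 5.83% of all, stood above most classes in both lists. Their mitosis genes summed to 606 and 622 CPM, the UMIs of a gene or list scaled to 1000000 UMIs of the class, and 112 of 1295 and 122 of 1298 of them held at least 4 genes of a list. Cells with fewer than 3 markers of every class were 9.21% and 6.97% of all, at medians of 1466 and 1388 UMIs. Their mitosis genes summed to 203 and 157 CPM, a log2 ratio of SPP1-nAb over IgG of -0.38 (-0.55 to -0.20). Barcodes removed as doublets, the 10% with the highest score in each library, held at least 4 replication genes more often than the cells kept, in 4.88% against 2.38% and in 6.38% against 2.99%. These barcodes were deeper, with medians of 6071 and 7593 UMIs, and their replication genes summed to 231 and 236 CPM and their mitosis genes to 243 and 222 CPM, no higher than in the barcodes kept.

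T or NK cells and cDC1 held the highest levels of both lists, as the plot of summed levels by class shows. In the 43 IgG cells gated as T or NK cells the mitosis genes summed to 2052 CPM (interval 1846 to 2275), and in the 72 of SPP1-nAb to 3240 CPM (3059 to 3429). cDC1, the dendritic cells that cross-present antigen, followed at 1043 and 1146 CPM, and cDC2 at 662 and 782 CPM. Myogenic cells, those of the muscle lineage, held 569 CPM (542 to 597) and 1094 CPM (1057 to 1132). They stood below cDC2 in IgG and above them in SPP1-nAb, where their interval overlapped that of cDC1.

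Schwann cells, the glia of peripheral nerve, held mitosis transcripts at 462 CPM (422 to 505) and 239 CPM (212 to 267). Mononuclear phagocytes, which were 55.7% and 66.8% of all cells kept, held 194 and 196 CPM. Neutrophils (107 and 139 CPM), mesenchymal cells (99.5 and 165 CPM) and mregDC, a mature dendritic state (58.9 and 52.1 CPM), stood at the low end. In the IgG library the intervals of neutrophils, mesenchymal cells and endothelial cells (78.0 CPM) overlapped. pDC, at 31 and 45 cells, held 18 and 29 UMIs of the list in all, or 159 and 169 CPM.

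The replication genes gave a flatter order than the mitosis genes. They stood at 989 and 1436 CPM in T or NK cells, 601 and 637 CPM in cDC1, 384 and 426 CPM in cDC2 and 283 and 500 CPM in myogenic cells. At the low end were mesenchymal cells (155 and 145 CPM), neutrophils (104 and 144 CPM) and mregDC (102 and 172 CPM). Endothelial cells (373 and 384 CPM) and mural cells, the pericytes and smooth muscle of vessels (312 and 334 CPM), had intervals that overlapped those of cDC2 and lay above phagocytes (223 and 219 CPM). Their mitosis genes in IgG were among the lowest, 78.0 and 37.8 CPM, so the lists ranked these vessel cells differently.

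**Figure D1:**
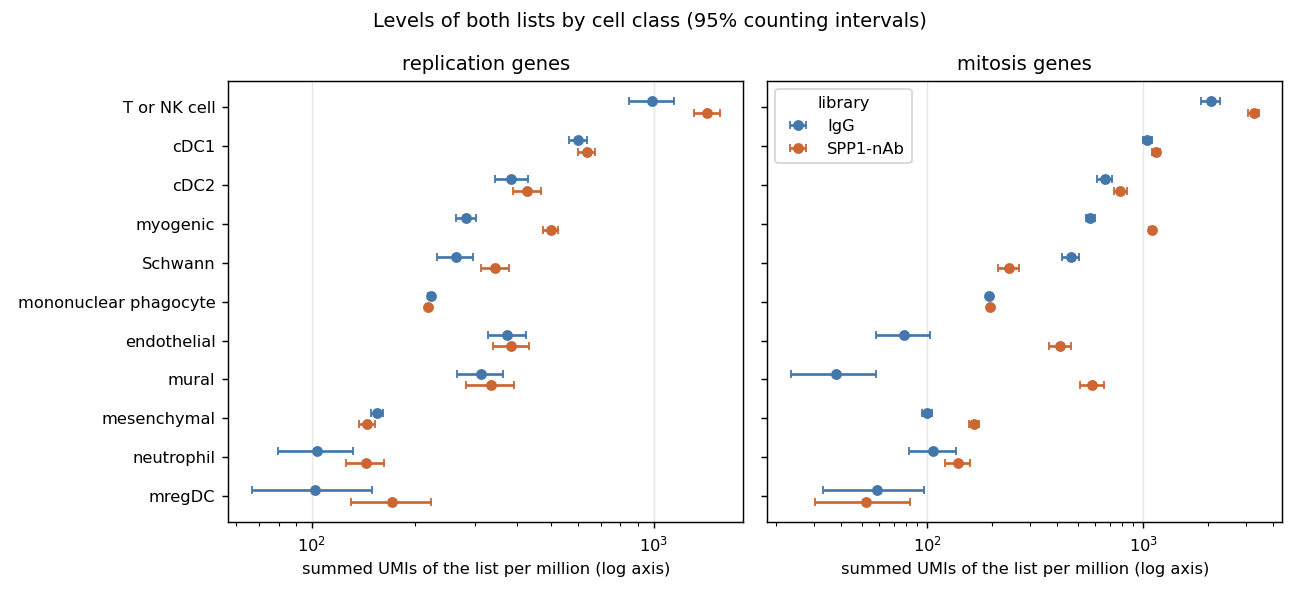
Summed UMIs of the 17 replication genes (left) and the 24 mitosis genes (right) in each cell class, as CPM on a log axis, with 95% counting intervals, for the IgG and SPP1-nAb libraries. T or NK cells are highest in both panels, and the mitosis points of the libraries lie far apart in mural, endothelial, Schwann and myogenic cells.

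A sum can come from many cells or from few, so cells with at least 4 genes of a list were also counted after each cell had been thinned to 2000 UMIs. This puts cells of unequal depth on the same footing, and shallower cells were left out. Among cDC1, 10.4% of 280 cells (interval 7.05 to 14.5) in IgG and 12.3% of 236 (8.39 to 17.2) in SPP1-nAb held at least 4 mitosis genes. The share was 4.05% and 6.40% in cDC2, 2.93% and 4.97% in myogenic cells, and 2.96% and 0.635% in Schwann cells. It was 0.831% and 0.808% in phagocytes and 0.482% and 1.25% in mesenchymal cells.

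For at least 4 replication genes the share was 7.86% and 7.63% in cDC1, 4.62% and 2.33% in cDC2, 0.926% and 2.58% in myogenic cells and 0.554% and 0.333% in phagocytes. These rare cells were a larger share without thinning, 20.6% and 29.0% in cDC1 and 1.90% and 2.18% in phagocytes, where the median cell held 3945 and 4963 UMIs. Of the T or NK cells, too few for a share, 8 of 39 and 16 of 66 held at least 4 mitosis genes after thinning.

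Mature neutrophils, which do not divide, gave the background of these counts. Of neutrophils, whose median depth was 1223 and 1374 UMIs, only 7 and 78 reached 2000 UMIs, and 0 and 2 of these held at least 4 mitosis genes. Thinned to 1000 UMIs, 0 of 392 and 0 of 995 neutrophils held at least 4 genes of either list, which allows shares of up to 0.937% and 0.370%. At that depth 59 of 11593 and 74 of 14777 phagocytes did so for the mitosis genes, or 0.509% and 0.501%. The upper limit of neutrophils lay above this share in IgG and below it in SPP1-nAb. For the replication genes 18 and 14 phagocytes passed, or 0.155% and 0.0947%, under the upper limit of neutrophils in both libraries. Among mregDC, 0 of 54 and 0 of 55 cells held at least 4 genes of either list at 2000 UMIs, which allows up to 6.60% and 6.49%. Unthinned, 0 of 489 and 3 of 1103 neutrophils held at least 4 genes of a list, and those 3 had a median of 8453 UMIs against 1372 in the other neutrophils.

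**Figure D2:**
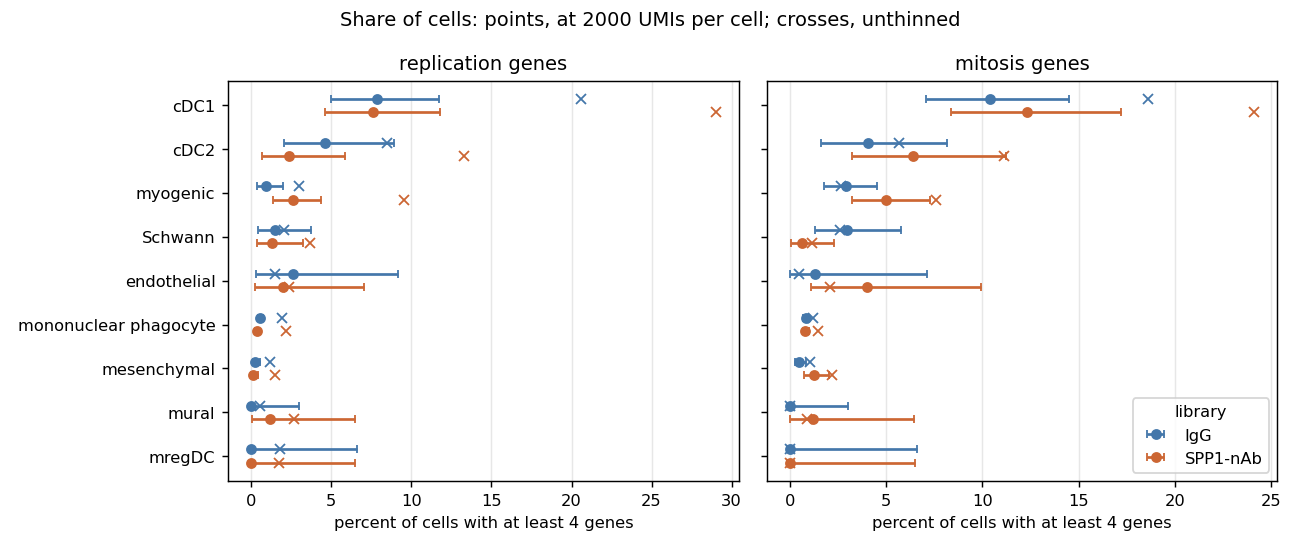
Percent of cells with at least 4 replication genes (left) or 4 mitosis genes (right) by class and library. Points give the share at 2000 UMIs per cell with exact binomial 95% intervals and crosses the unthinned share. The cDC1 share of 10.4% and 12.3% for mitosis genes lies above that of phagocytes, 0.831% and 0.808%.

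The mitosis UMIs of the smaller classes lay in very few cells. Of the 261 mitosis UMIs of mural cells in SPP1-nAb, 241 (92.3%) came from 1 of the 112 cells. In Schwann cells of the IgG library, 10 of 346 cells held 86.7% of the mitosis UMIs and 1 cell held 33.5%. The corresponding share of 10 cells was 67.9% and 51.6% in myogenic cells, 10.7% and 7.23% in phagocytes, and for the replication genes of phagocytes 2.84% and 1.93%. A fixed 10 cells is a larger part of a small class, so these shares do not rank the classes. Counting intervals treat UMIs as independent, so they are too narrow where few cells carry the sum.

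Counted without thinning, 639 and 855 cells held at least 4 genes of either list, or 3.04% and 3.84% of the cells kept. Phagocytes gave the most, 285 and 427 cells, of which 147 and 213 passed for replication genes alone, 76 and 111 for both lists and 62 and 103 for mitosis genes alone. cDC1 gave 74 of 296 and 85 of 245 cells, and T or NK cells 12 of 43 and 34 of 72. Both lists together were met in 56.8% and 52.9% of the cDC1 that passed, against 26.7% and 26.0% of the phagocytes. Those cDC1 were deeper, with medians of 8158 and 9261 UMIs against 6391 and 7880 in the phagocytes that passed. The part of depth in this difference was not tested. Over all classes, the cells that passed were deeper than the rest, with medians of 7101 and 8379 UMIs against 3568 and 4448.

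Most members followed this order of classes, as the map of members by class shows. Top2a, the topoisomerase that untangles replicated chromosomes, stood at 460 and 879 CPM in T or NK cells, 258 and 269 CPM in cDC1, 101 and 202 CPM in myogenic cells and 23.7 and 22.2 CPM in phagocytes. Mki67, which coats mitotic chromosomes and is the usual tissue marker of dividing cells, stood at 239 and 446 CPM in T or NK cells and 167 and 188 CPM in cDC1. Rrm2, the subunit of ribonucleotide reductase that is made in S phase, was at 85.3 and 154 CPM in T or NK cells and at 0 in mural cells and mregDC of both libraries. On the GRCm39 build, Top2a lies at chr11:98883769-98915062 and Mki67 at chr7:135291513-135318299, both on the minus strand.

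Some members were abundant in a class that held little of the rest of their list. Rrm1, the large subunit of ribonucleotide reductase, stood at 159 CPM (127 to 195) and 174 CPM (137 to 217) in mural cells, against 22.8 and 20.5 CPM in all other cells. It made up 50.9% and 52.0% of the replication UMIs of mural cells, and was seen in 50 of 175 and 35 of 112 of them. Only 1.14% and 7.69% of these Rrm1 UMIs lay in cells with at least 4 other replication genes, and Rrm2 was not seen in mural cells. The high place of mural cells in the replication list thus rested in large part on this gene, without which the list summed to 153 and 160 CPM.

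Kif23, a kinesin of the central spindle that is needed for the last step of division, behaved in the same way in neutrophils. It stood at 53.5 CPM (36.8 to 75.1) and 35.9 CPM (27.2 to 46.4) there, against 9.62 and 8.19 CPM in all other cells and 9.41 and 6.67 CPM in phagocytes. The 33 and 58 UMIs were spread over 31 and 55 cells, with at most 2 in any cell, and 0% and 3.45% of them lay in cells with at least 4 other mitosis genes. Kif23 was 50.0% and 25.9% of the mitosis UMIs of neutrophils. Pcna gave 71.9% and 64.2% of their replication UMIs, at 74.5 and 92.2 CPM, close to the 93.4 and 102 CPM of the other cells.

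Cdc6, which loads the MCM helicase, stood at 36.7 CPM (23.5 to 54.6) and 21.6 CPM (12.1 to 35.6) in endothelial cells and at 7.12 and 6.51 CPM in phagocytes. Pcna was seen in every class with at least 50 cells, from 47.1 CPM in mregDC of the IgG library to 268 CPM in T or NK cells of the SPP1-nAb library. Cenpa, the histone variant that marks centromeres, was at 44.1 and 54.2 CPM in phagocytes and gave 22.8% and 27.7% of their mitosis UMIs. UMIs are not divided by gene length, so no order of members by abundance is read from these shares.

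**Figure D3:**
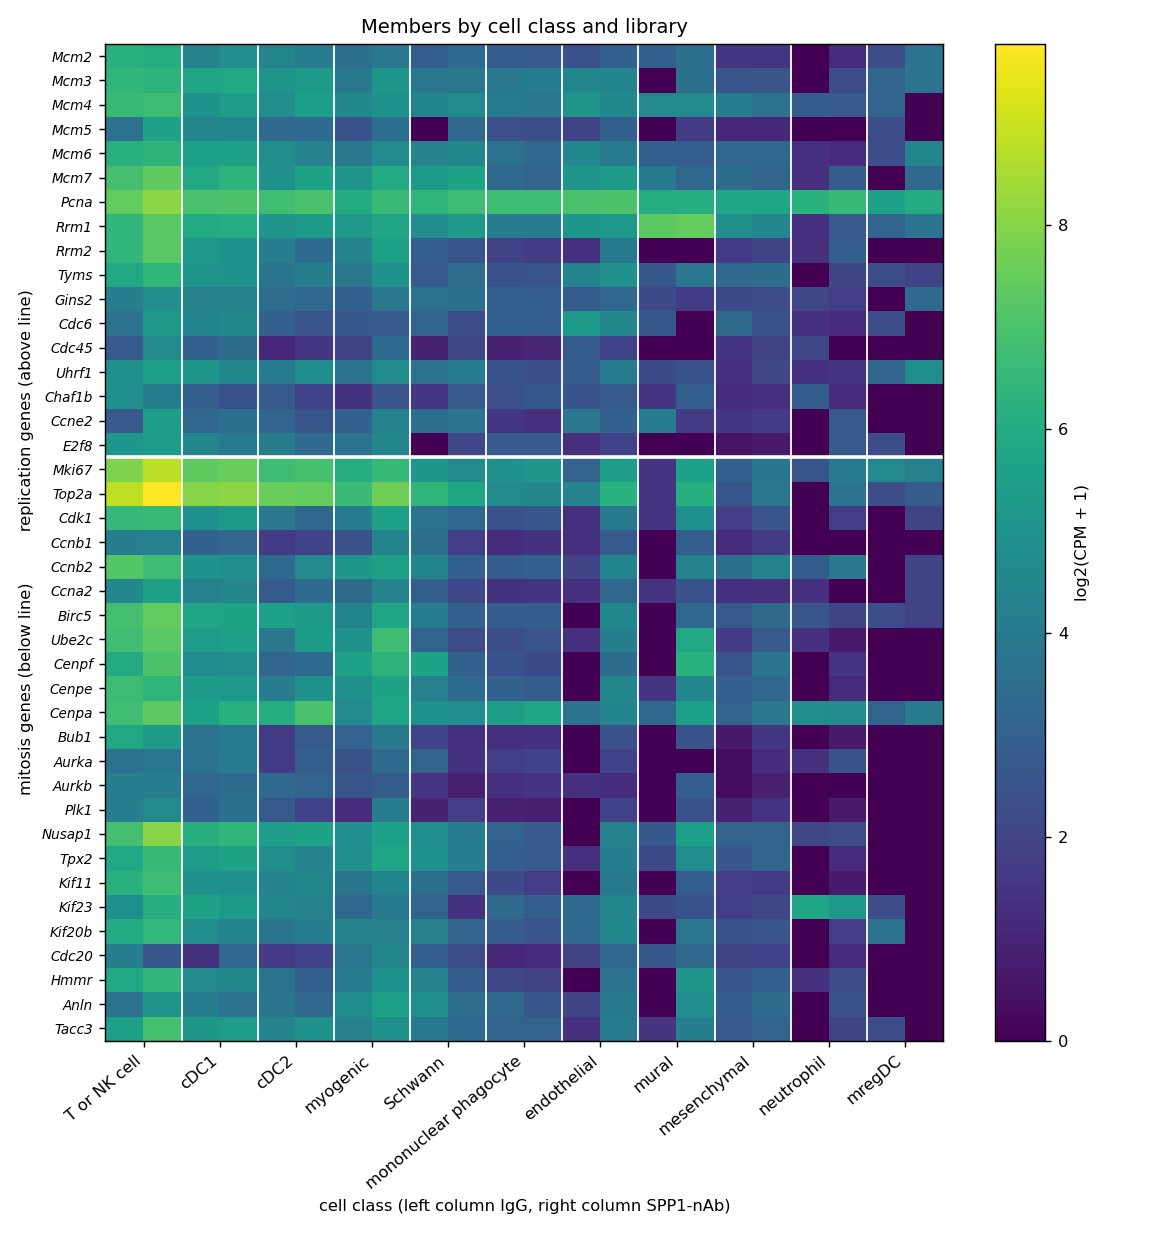
Level of each member, as log2(CPM + 1), by cell class, with the IgG library in the left and the SPP1-nAb library in the right column of each class. Replication genes are above the white line and mitosis genes below it. Rrm1 in mural cells (159 and 174 CPM) and Kif23 in neutrophils (53.5 and 35.9 CPM) stand out from the other members of their lists in those classes.

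How tightly a member kept company with the rest of its list was measured as the share of its UMIs that lay in cells with at least 4 other genes of that list, over all classes. Such cells were at most 2.37% of the IgG cells for the replication genes and 1.77% for the mitosis genes. Hmmr, a spindle protein, had the highest share of the 41 members, 95.8% and 95.5% of its UMIs. Cenpf, of the outer kinetochore, had 91.2% and 90.7%, Ube2c, the ubiquitin-conjugating enzyme of mitotic exit, 89.9% and 87.9%, and Ccna2, the cyclin of S and G2 phase, 87.5% and 92.2%. These genes were seen mostly beside their fellows, in both libraries alike.

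Most replication genes were less confined. Rrm2 had 72.5% and 73.2% and Uhrf1, which carries DNA methylation over to the new strand, 67.1% and 64.0%. Among the MCM genes the share ran from 24.9% for Mcm4 to 57.3% for Mcm5 in the IgG library. Pcna had the lowest share of all members, 12.6% and 12.7%, although its level in such cells was 2.75-fold that of the other cells in SPP1-nAb. Cenpa had 17.4% and 17.5%, the lowest of the mitosis genes, followed by Aurka, a spindle pole kinase, with 38.9% and 32.1%. Most UMIs of Pcna and Cenpa thus lay in cells with fewer than 4 other members.

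**Figure D4:**
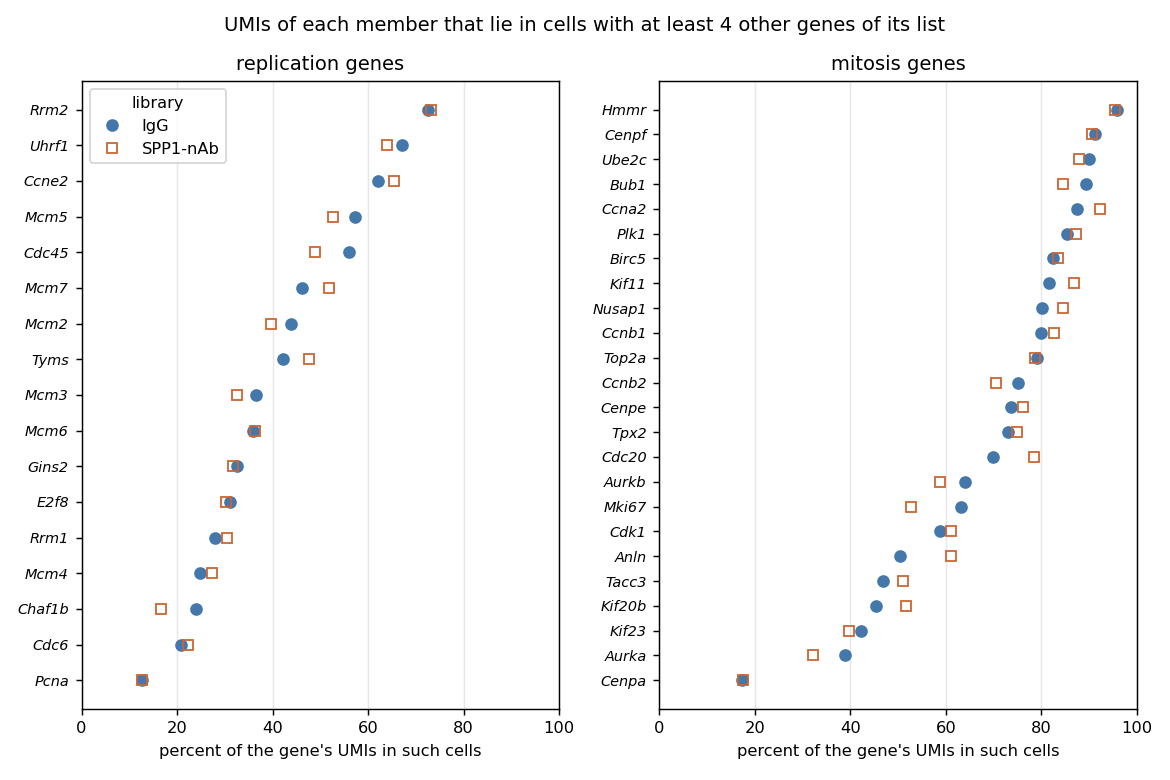
Percent of each member's UMIs that lie in cells with at least 4 other genes of its own list, over all classes, in the IgG (filled circles) and SPP1-nAb (open squares) libraries. Pcna (12.6% and 12.7%) is lowest on the left, and Hmmr (95.8% and 95.5%) is highest on the right.

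Of the sequence motifs searched in the promoters, those named E2F and CHR were found in different shares of the lists. Promoters in RefSeq's GRCm38.p6 set, 250 bases before to 50 bases after a gene's start, were found for 14 of the 17 replication and 21 of the 24 mitosis genes. The letters searched, on both strands, were TTTCCCGC, TTTGGCGC, TTTCGCGC and TTTGCCGC for the E2F site, TTTGAA and TTCGAA for the cell cycle genes homology region (CHR), and CCAAT for the CCAAT box. Overlapping matches of a motif were counted as 1. An E2F match was present in 6 of 14 replication genes (42.9%) and 1 of 21 mitosis genes (4.76%), against 2.60% of 27025 genes with a promoter in the set. A CHR match was present in 16 of 21 mitosis genes (76.2%) and 4 of 14 replication genes (28.6%), against 21.7% of all.

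At least 2 CCAAT boxes were found in 12 of 21 mitosis genes and 7 of 14 replication genes, against 13.1% of all genes, and a CHR match together with at least 2 CCAAT boxes in 11 of 21 (52.4%) and 2 of 14 (14.3%), against 3.04% of all. A match is a description of the letters in this window. The 200 bases before the start are printed for 5 members, read 5′ to 3′ along the gene, to show a pair of helicase promoters with E2F matches beside mitotic promoters with CHR matches, with CCAAT boxes in each. Capitals mark every match. The windows are chr8:75109309-75109508 (plus strand) for Mcm5, chr1:128359706-128359905 (minus) for Mcm6, chr10:69352913-69353112 (minus) for Cdk1, chr11:99024190-99024389 (minus) for Top2a and chr2:164769729-164769928 (plus) for Ube2c, all on GRCm38.p6.
Mcm5: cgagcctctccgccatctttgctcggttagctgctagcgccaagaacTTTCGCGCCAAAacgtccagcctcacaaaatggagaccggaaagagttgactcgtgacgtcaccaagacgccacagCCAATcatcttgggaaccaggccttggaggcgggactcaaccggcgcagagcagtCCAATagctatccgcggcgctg
Mcm6: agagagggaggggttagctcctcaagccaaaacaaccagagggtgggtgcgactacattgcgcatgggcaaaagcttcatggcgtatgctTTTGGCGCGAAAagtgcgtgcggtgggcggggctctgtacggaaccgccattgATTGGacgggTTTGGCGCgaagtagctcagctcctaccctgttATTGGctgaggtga
Cdk1: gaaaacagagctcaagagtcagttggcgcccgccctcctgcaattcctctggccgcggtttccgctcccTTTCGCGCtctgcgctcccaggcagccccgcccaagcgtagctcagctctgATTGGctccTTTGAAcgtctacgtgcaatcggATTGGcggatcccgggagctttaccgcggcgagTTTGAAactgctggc
Top2a: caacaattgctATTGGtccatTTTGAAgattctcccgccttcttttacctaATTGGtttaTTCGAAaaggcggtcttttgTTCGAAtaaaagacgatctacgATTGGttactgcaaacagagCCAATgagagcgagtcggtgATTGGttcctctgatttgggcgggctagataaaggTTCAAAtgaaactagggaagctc
Ube2c: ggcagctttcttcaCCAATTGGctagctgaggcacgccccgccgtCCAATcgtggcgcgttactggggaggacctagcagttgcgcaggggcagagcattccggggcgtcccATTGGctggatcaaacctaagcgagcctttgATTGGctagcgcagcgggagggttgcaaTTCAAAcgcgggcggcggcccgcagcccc
Mcm5 and Mcm6 hold 1 and 2 E2F matches in these windows, 2 CCAAT boxes each and no CHR match, and Top2a and Ube2c hold 4 and 1 CHR matches, 5 and 4 CCAAT boxes and no E2F match. Cdk1, the kinase that starts mitosis, holds all 3 motifs, with 1 E2F match, 2 CHR matches and 2 CCAAT boxes.

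Other cell cycle genes, not used to choose the cells, were compared between cells with at least 4 members of a list and the rest of their class. Phagocytes had enough such cells, 285 and 427. Of 39 further genes of origins and forks, 37 reached 100 UMIs, and 35 of these were at least 1.5-fold higher in cells with at least 4 members in both libraries and 0 lower. Over all 12283 genes tested in phagocytes, 7.92% were higher and 4.78% lower by the same rule. Tk1, thymidine kinase, was higher by 6.26 and 5.35 on the log2 scale, and Clspn, of the replication checkpoint, by 6.21 and 5.68. The smallest ratios of the list were those of Slbp, the histone mRNA binding protein (0.81 and 0.52), Gins4 (0.94 and 0.98) and Cdt1 (1.44 and 0.49).

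Of 46 further genes of the spindle and chromosomes, 36 reached 100 UMIs and 33 were higher, 0 lower. Pbk, a mitotic kinase, stood at 43.1 and 25.5 CPM in cells with at least 4 members and at 0.0636 and 0.0539 CPM in the rest. Spc24, of the kinetochore, was higher by 7.58 and 6.97 and Aspm, of the spindle pole, by 8.19 and 6.15 on the log2 scale. Pttg1, which holds separase in check (0.51 and 0.79), Bub3, of the spindle checkpoint (0.57 and 0.48), and Espl1, separase itself (1.43 and 0.42), had the smallest ratios.

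Genes of cell cycle entry and exit were split. Of 28, 26 reached 100 UMIs, and 10 were higher and 3 lower in phagocytes with at least 4 members. Ccne1, the G1 cyclin that starts S phase, was higher by 3.20 and 2.23, Rbl1, a relative of the retinoblastoma protein, by 2.27 and 1.78, and E2f2 by 2.06 and 1.72 on the log2 scale. Among the D-type cyclins, which couple growth signals to the cycle, Ccnd1 stood at 227 and 109 CPM against 61.7 and 37.6 CPM in the rest, and Ccnd2 at 113 and 76.4 against 61.2 and 31.2 CPM. Ccnd3 differed little, at 44.2 and 43.8 CPM against 46.2 and 37.4 CPM.

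The lower side held inhibitors of division. Cdkn1a, which encodes the CDK inhibitor p21, stood at 433 and 532 CPM in phagocytes with at least 4 members against 686 and 830 CPM in the rest, and Btg1, an antiproliferative factor, at 667 and 827 against 1129 and 1313 CPM. Cdkn1a also differed between subclasses, at 357 and 511 CPM in resident macrophages and 1021 and 1151 CPM in monocytes, and the part of subclass in its ratio was not tested. Cdkn1c, which encodes p57, was at 3.27 and 3.11 against 8.35 and 5.28 CPM, resting on 6 and 11 UMIs. Cdkn1b, for p27, had log2 ratios of -0.21 and -0.39, and Cdkn2c, for p18, one of 1.72 and 1.55. Gas1, with 3 and 1 UMIs in these cells, had -0.17 and -2.02.

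Spp1, the transcript of the protein that the antibody binds, was lower in the phagocytes with at least 4 members in both libraries. It stood at 131 CPM (115 to 148) against 880 CPM in IgG, a log2 ratio of -2.75, and at 433 CPM (412 to 456) against 1216 CPM in SPP1-nAb, a log2 ratio of -1.49. Of the 285 phagocytes in IgG 92 were gated as resident macrophages and 25 as lipid-handling, and of the 427 in SPP1-nAb 98 and 117, and the part of subclass in the Spp1 ratio was not tested. In myogenic cells the ratio ran the other way, with 118 and 179 CPM in cells with at least 4 members against 41.5 and 78.9 CPM in the rest. In mesenchymal cells Spp1 stood at 173 and 112 against 54.0 and 87.9 CPM, and in cDC1 at 90.0 and 123 against 48.4 and 77.3 CPM. These levels are below the 880 and 1216 CPM summed over the phagocytes with fewer members, but the 173 CPM is above the 131 CPM of the phagocytes with at least 4 in IgG. How Spp1 was spread over single phagocytes was not measured. The rough free-RNA estimate was 12.4% and 15.8% in myogenic cells, 23.9% and 31.9% in mesenchymal cells and 7.68% and 15.3% in cDC1. The part of free RNA and of doublets in the Spp1 levels of these 3 classes was not tested.

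The same comparison was extended, after the data had been seen, to classes with at least 30 such cells. Of the further origin and fork genes that reached 100 UMIs, 14 of 15 were higher in myogenic cells, 16 of 21 in mesenchymal cells and 15 of 15 in cDC1, and 0 were lower. Of the further spindle genes, 17 of 17, 8 of 9 and 12 of 12 were higher. Over all genes tested, 11.8% were higher and 17.9% lower in myogenic cells, 7.96% and 12.8% in mesenchymal cells, and 8.45% and 2.42% in cDC1. Ccnd1 was higher in the cells with at least 4 members in myogenic cells, 253 and 271 against 90.9 and 78.9 CPM, and Ccnd3 lower, 88.6 and 95.2 against 195 and 189 CPM. The log2 ratio of Cdkn1a was -0.93 and -1.39 in mesenchymal cells and 0.86 and 0.29 in cDC1.

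The study asked what neutralization of SPP1 changes in muscle after nerve injury. Over all cells kept, replication genes summed to 236 and 245 CPM and mitosis genes to 245 and 276 CPM. Of the 41 members, 2 were at least 1.5-fold higher in SPP1-nAb and 0 lower, where 2.69% of the 15119 genes tested were higher and 16.7% lower. The median log2 ratio was 0.098 for the members and -0.11 for all genes. The classes made up different shares of the libraries, mesenchymal cells for example 14.6% and 6.33%, so each class was taken alone. In such sums, fewer dividing cells and less of each transcript per cell cannot be told apart.

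In mononuclear phagocytes taken as a whole, the lists stood level in the libraries. The log2 ratio of SPP1-nAb over IgG was -0.026 (-0.061 to 0.0087) for replication genes and 0.015 (-0.022 to 0.052) for mitosis genes. Of the 41 members 0 were at least 1.5-fold higher and 1 lower, where 2.56% of 12324 genes were higher and 8.34% lower. The lower member was Anln, the anillin of the contractile ring, with 432 UMIs (8.81 CPM) in IgG and 395 UMIs (5.08 CPM) in SPP1-nAb, a log2 ratio of -0.80 (-1.0 to -0.59). Kif11, the kinesin that parts the spindle poles, had -0.54 and Kif23 -0.50, while Cenpa had 0.30 (0.22 to 0.37).

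At 2000 UMIs per cell, the share of phagocytes with at least 4 mitosis genes differed by -0.0237 percentage points (-0.260 to 0.206). For replication genes it differed by -0.221 points (-0.403 to -0.0504), and without thinning the sign turned, to 0.273 points (-0.0756 to 0.618). The unthinned cells were deeper in SPP1-nAb, and no order of the libraries is read from the replication share.

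Subclasses of phagocytes differed in level and in how the libraries compared. Cells gated as resident macrophages held mitosis genes at 265 and 278 CPM, those gated as lipid-handling 132 and 145 CPM, monocytes 117 and 160 CPM, and cells with none of these gates 241 and 234 CPM. In resident macrophages 2 of 27 members were at least 1.5-fold higher in SPP1-nAb and 0 lower, with 3.77% and 4.20% of all genes. In lipid-handling phagocytes, 1643 and 4595 cells, 4 of 28 were higher and 0 lower, with 2.41% and 2.70%. Those 4 reached the minimum mainly through SPP1-nAb: Mcm5 (21 and 113 UMIs), Cdc6 (16 and 92), Chaf1b (27 and 150) and Cdk1 (28 and 143). Cenpf, with 28 and 32 UMIs and a log2 ratio of -1.46 (-2.24 to -0.68), fell under it, so no order of the libraries is read from these counts. In monocytes 0 of 15 were higher and 1 lower, with 1.95% and 2.15%, and in the ungated phagocytes 0 of 33 were higher and 3 lower, with 2.29% and 4.74%.

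Phagocytes with interferon-response markers were the subclass in which the libraries lay furthest apart. Over 1258 IgG cells their mitosis genes summed to 129 CPM (120 to 139), and over 941 SPP1-nAb cells to 285 CPM (270 to 300), a log2 ratio of 1.14 (1.01 to 1.27). Of 11 members with 100 UMIs over both libraries, 5 were at least 1.5-fold higher and 0 lower, where 3.63% and 3.15% of all genes were. Some reached that minimum only through the library where they were higher, and Aurka (22 and 9 UMIs, log2 ratio -1.09, -2.40 to 0.084) fell under it. Pcna (597 and 592 UMIs, 0.18) and Cenpa (197 and 185 UMIs, 0.11), the members with the most UMIs, stayed under 1.5-fold. Ccnb2, a B-type cyclin, went from 19 UMIs (3.42 CPM) in 7 cells to 88 UMIs (18.2 CPM) in 35 cells, and Mki67 from 74 UMIs (13.3 CPM) to 222 UMIs (45.8 CPM). The cells with at least 4 mitosis genes at 2000 UMIs were 4 of 1203 and 15 of 916, a difference of 1.31 points (0.420 to 2.38). In SPP1-nAb 51.8% of the mitosis UMIs lay in 10 cells, and with no doublets removed, or with classes gated on cells thinned to 2000 UMIs, the log2 ratio was 0.72. Replication genes differed less, at 208 and 252 CPM, a log2 ratio of 0.28 (0.16 to 0.39). At 2000 UMIs 3 of 1203 and 3 of 916 cells held at least 4 of them.

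Cells gated as myogenic held more of both lists in the SPP1-nAb library. Replication genes went from 829 UMIs (283 CPM) in 980 cells to 1493 UMIs (500 CPM) in 619 cells, a log2 ratio of 0.82 (0.70 to 0.95). Mitosis genes went from 1670 UMIs (569 CPM) to 3270 UMIs (1094 CPM), a log2 ratio of 0.94 (0.86 to 1.03). Of the 26 members with at least 100 UMIs, 21 were at least 1.5-fold higher and 0 lower, where 8.34% of the 6475 genes tested in these cells were higher and 6.25% lower. Their median log2 ratio was 0.83, against 0.012 for all genes. That minimum counts both libraries together, and some of the 21 reached it mainly through SPP1-nAb. Among them were Mcm3 (42 and 100 UMIs), Tyms (40 and 92) and Cdk1 (48 and 141). The sums of the lists hold every member, without this minimum.

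The members past 1.5-fold came from several steps of the cycle. Of the helicase, Mcm3 went from 14.3 to 33.5 CPM, a log2 ratio of 1.22 (0.69 to 1.78). Of nucleotide supply, Rrm2 went from 19.8 to 46.5 CPM (1.23, 0.78 to 1.70) and Tyms, thymidylate synthase, from 13.6 to 30.8 CPM (1.17, 0.62 to 1.75). Of the mitotic engine, Cdk1 went from 16.4 to 47.2 CPM (1.53, 1.05 to 2.03), and Birc5, the survivin of the chromosomal passenger complex, from 20.1 to 54.9 CPM (1.45, 1.01 to 1.90).

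Ube2c had the largest ratio of the members tested in these cells, from 88 UMIs in 19 cells to 316 UMIs in 48 cells, a log2 ratio of 1.82 (1.47 to 2.18). The remaining 5 members stayed under 1.5-fold: Kif20b, a kinesin of cytokinesis (-0.053), Ccnb2 (0.40), Mki67 (0.43), Rrm1 (0.46) and Mcm4 (0.48). Without the cell with the most UMIs in each library the log2 ratios of the lists were 0.83 and 0.97, and with clusters in place of the gate 0.49 and 0.64. The gate was the narrower choice, as the largest of the clusters named myogenic alone held 1935 and 1061 cells. The count of members depends on the minimum, with 32 past 1.5-fold at 30 UMIs, which all but Chaf1b reached, and 4 at 300. Those 4 were Pcna, Top2a, Ube2c and Cenpf, and Mki67 was the only other member that reached 300 UMIs. The share over all genes was not taken at these minima.

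Cells with at least 4 members of a list were 39 of 980 and 66 of 619 myogenic cells, or 3.98% and 10.7%. These cells differed in depth between the libraries, with a median of 7428 UMIs in IgG and 13827 in SPP1-nAb, while the other myogenic cells had 2295 and 3045. At 2000 UMIs per cell the share with at least 4 replication genes was 6 of 648 and 13 of 503, a difference of 1.66 points (0.0442 to 3.55). For mitosis genes it was 19 of 648 and 25 of 503, a difference of 2.04 points (-0.323 to 4.59), an interval that holds 0. The part of depth in the difference of the sums was not tested.

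Within the myogenic class, cells gated as differentiating myoblasts numbered 41 and 42. Their mitosis genes summed to 781 and 1123 CPM, but 63.8% of the IgG sum came from 1 cell. Replication genes in these cells summed to 305 and 618 CPM, a log2 ratio of 1.02 (0.69 to 1.36). Without thinning, 5 of the 41 and 16 of the 42 held at least 4 genes of a list. The remaining myogenic cells went from 544 to 1087 CPM for mitosis genes and from 280 to 472 CPM for replication genes. Cdkn1c, an inhibitor of the cycle that is made as myoblasts differentiate, stood at 857 and 657 CPM in the whole class, 7004 and 2838 CPM in the gated myoblasts and 127 and 153 CPM in the cells outside that gate.

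In Schwann cells the lists differed in opposite directions. Replication genes went from 274 UMIs (264 CPM) in 346 cells of IgG to 428 UMIs (344 CPM) in 354 cells of SPP1-nAb, a log2 ratio of 0.38 (0.16 to 0.61). Mitosis genes went from 480 UMIs (462 CPM) to 297 UMIs (239 CPM), a log2 ratio of -0.95 (-1.17 to -0.74). Cells with at least 4 genes of either list numbered 12 and 13, or 3.47% and 3.67%. Of the 12 in IgG, 3 passed for replication genes alone, 4 for both lists and 5 for mitosis genes alone, and of the 13 in SPP1-nAb the numbers were 9, 4 and 0.

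Few cells carried the difference in the mitosis sum. Cenpf went from 52 UMIs in 7 cells (50.0 CPM) to 9 UMIs in 3 cells (7.23 CPM), a log2 ratio of -2.79 (-4.00 to -1.76), and Anln from 29 UMIs in 14 cells to 13 UMIs in 7 cells. Top2a, which went from 86 to 65 UMIs and from 82.8 to 52.2 CPM, was seen in 10 cells of each library, and Mki67 in 9 and 8 cells. Without the cell with the most mitosis UMIs in each library the log2 ratio was -0.86 (-1.12 to -0.61), and with free RNA subtracted it was -1.41. At 2000 UMIs per cell, 8 of 270 and 2 of 315 Schwann cells held at least 4 mitosis genes, a difference of -2.33 points (-5.17 to 0.0161), and 4 of 270 and 4 of 315 held at least 4 replication genes.

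The D-type cyclin Ccnd1 was at 604 CPM (558 to 654) and 732 CPM (685 to 781) in Schwann cells, above its 67.9 and 40.9 CPM in phagocytes and 108 and 143 CPM in myogenic cells. Cdkn1a stood at 158 and 174 CPM, Cdkn1b at 103 and 118 CPM and Cdkn1c at 43.3 and 48.2 CPM, with overlapping intervals between the libraries for each of these inhibitors. Schwann cells with at least 4 members of a list were 3.47% and 3.67% of the class, near the 3.04% and 3.84% of all cells kept.

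**Figure D5:**
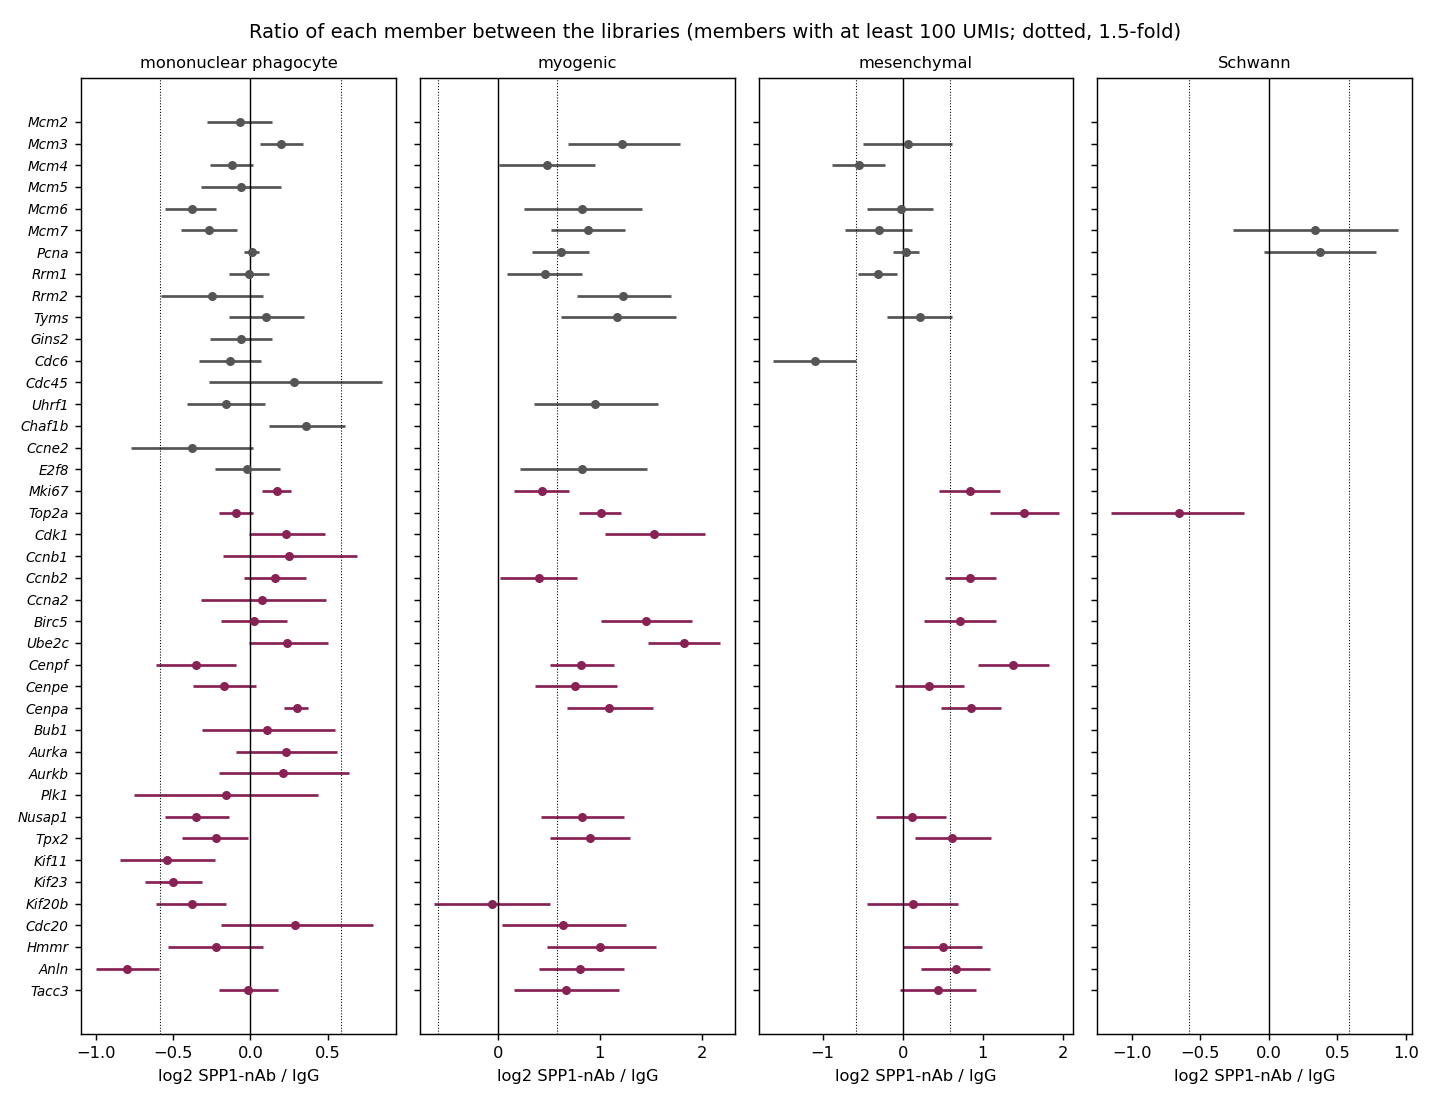
Log2 ratio of SPP1-nAb over IgG for each member with at least 100 UMIs in the class, with 95% counting intervals (grey, replication genes, purple, mitosis genes), in 4 classes. Dotted lines mark 1.5-fold. In myogenic cells 21 of 26 members lie beyond the right line, and in phagocytes 1 of 41 lies beyond the left line.

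In mesenchymal cells the mitosis genes alone were higher in SPP1-nAb. They summed to 99.5 CPM in 3083 cells and 165 CPM in 1410 cells, a log2 ratio of 0.73 (0.63 to 0.83), and replication genes to 155 and 145 CPM. Of 21 members with 100 UMIs, 8 were at least 1.5-fold higher and 1 lower, where 4.89% of 10797 genes were higher and 5.92% lower. Top2a went from 4.84 to 13.8 CPM, a log2 ratio of 1.51 (1.09 to 1.95), and Cenpf from 4.84 to 12.5 CPM (1.37, 0.94 to 1.82). The lower member was Cdc6, from 141 UMIs (9.47 CPM) to 42 UMIs (4.46 CPM), a log2 ratio of -1.09 (-1.62 to -0.58).

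At 2000 UMIs 13 of 2698 and 16 of 1283 mesenchymal cells held at least 4 mitosis genes, a difference of 0.765 points (0.133 to 1.57). The top cell held 13.7% of the SPP1-nAb sum and was gated as a tenocyte, and without the top cell of each library the log2 ratio was 0.61. With 20% of barcodes removed as doublets in place of 10% it was 0.35, and with a looser gate 0.41. Tenocytes, taken apart, had 188 and 149 CPM, with 76.6% of the SPP1-nAb value in 1 of 395 cells, and the mesenchymal cells outside every subclass had 84.7 and 170 CPM.

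Vessel cells gave large ratios on few cells. Mitosis genes of endothelial cells went from 51 UMIs (78.0 CPM) in 413 cells to 288 UMIs (414 CPM) in 340 cells, a log2 ratio of 2.41 (1.98 to 2.87), with 84.7% of the SPP1-nAb UMIs in 10 cells. Without the top cell of each library it was 2.09, and with clusters 1.35. At 2000 UMIs 1 of 76 and 4 of 100 cells held at least 4 mitosis genes, a difference of 2.68 points (-3.80 to 8.75). In mural cells the log2 ratio of 3.94 fell to 0.51 (-0.48 to 1.52) without the top cell. Replication genes had log2 ratios of 0.042 and 0.098 in endothelial and mural cells, with intervals that hold 0.

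In cDC1 the log2 ratio was 0.084 (-0.038 to 0.21) for replication and 0.14 (0.044 to 0.23) for mitosis genes. Of 22 members 1 was at least 1.5-fold higher, Cenpa (46.7 and 72.0 CPM), and 1 lower, Uhrf1 (35.4 and 21.4 CPM), where 3.60% of genes were higher and 3.10% lower. In cDC2 the ratio was 0.15 and 0.24, and for the mitosis genes 0.48 without the top cell of each library, which held 22.8% of the IgG sum. With clusters the cDC2 mitosis ratio was -0.024, and with no doublets removed that of cDC1 was -0.061. In mregDC, 55 and 57 cells, replication genes summed to 102 and 172 CPM on 26 and 56 UMIs, a log2 ratio of 0.75 whose interval starts at 0.054. In T or NK cells it was 0.54 (0.29 to 0.79) and 0.66 (0.49 to 0.83) on 43 and 72 cells, with 95.8% of the IgG mitosis UMIs in 10 cells. Top2a was seen in 8 of 43 and 31 of 72 of them, at 460 and 879 CPM.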

How the data were processed

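Single-cell RNA-Seq counts of 2 libraries, IgG and SPP1-nAb, were used as the authors deposited them: filtered matrices of UMI counts per gene and barcode, made with Cell Ranger against GRCm39 with an added EGFP sequence. The labels name version 8.0.0 and the matrix headers 9.0.1. The study's later removal of ambient RNA and doublets is not part of these counts. Animals were pooled into 1 library per condition, so that no test was possible, and the total depth was 97607674 and 127719916 UMIs.

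Following the study's methods, a barcode was kept if over 200 genes were detected in it and mitochondrial genes gave under 10% of its UMIs. In each library the 10% with the highest doublet score were removed, from 2 simulated doublets per barcode, 2000 variable genes without cell cycle genes, 30 components and 50 neighbours. Cells were classed by 14 lists of 10 markers and 7 subclass lists of 8, subclasses needing at least 3 markers and a lead of 1. Of the class markers 1, for cDC2, was absent from the table. CPM was the summed UMIs of a list over all UMIs of the class, with exact Poisson 95% intervals, ratios had exact binomial intervals and shares Clopper-Pearson intervals. Shares were taken at 2000 UMIs per cell in classes with at least 50 cells. A gene was counted as higher or lower from 1.5-fold, given at least 100 UMIs in the class over both libraries together. A gene near this minimum can reach it only through the library where it is higher. Such counts were made in classes with at least 10 members so measured. Scripts were tested on simulated data and ran under Python 3.11.15 with numpy 2.4.6, scipy 1.17.1, pandas 2.3.3, scikit-learn 1.9.0 and leidenalg 0.10.2. Leiden clusters, at 20 neighbours and resolution 1, served as an alternative to the gate, on components integrated by a Harmony procedure written for this purpose.

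The named genes were the 41 members and, from lists of 39, 46 and 28 other cell cycle genes, the D-type cyclins, Cdkn1a, Cdkn1b, Cdkn1c, Cdkn2c and the 3 genes of each list with the highest and the 3 with the lowest ratio in phagocytes. Of the genes so chosen, 1 is not reported here. Spp1 was added as the target of the antibody. The members and lists were chosen with earlier results of these data known.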

Additional observations from a re-analysis of the deposited data

Results flagged for a closer look

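The mitosis genes moved in opposite directions between the libraries in different classes. Their log2 ratio of SPP1-nAb over IgG was 0.94 in myogenic cells and 0.73 in mesenchymal cells, but -0.95 in Schwann cells. These values drew attention because the counting intervals lie on opposite sides of 0. With 1 library per condition the difference between the classes was not tested. In the IgG library 10 of 346 Schwann cells held 86.7% of the mitosis UMIs. In myogenic cells 10 of 980 held 67.9%, and in mesenchymal cells 10 of 3083 held 43.3%. A fixed 10 cells is a larger part of a small class, so these shares do not rank the classes.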

How the results depend on the processing

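Of 476 values recomputed under alternatives, 412 stayed within their counting interval or, for a count of members, within 1.5 times it, and the others moved further. Of all, 35 changed sign, 4 of them where the counting interval of the reported value leaves out 0. In phagocytes the log2 ratio of the replication genes was -0.063 and that of the mitosis genes -0.052 with free RNA subtracted, and -0.079 for the mitosis genes without the member with the most UMIs. Without thinning the share differences of phagocytes were 0.273 points for replication genes, which is 1 of these 4, and 0.260 for mitosis genes, and those of myogenic cells 6.57 and 4.94. In myogenic cells the replication ratio was 0.62 with a gate of 2 markers and a lead of 1 and 0.49 with clusters, and the mitosis ratio 0.86 under 5% mitochondrial UMIs, 1.24 with the gate on thinned cells and 0.64 with clusters. Members at least 1.5-fold higher there numbered 32 at a minimum of 30 UMIs and 4 at 300, which far fewer members reached. These 2 counts have no share over all genes beside them, as it was not taken at those minima. In Schwann cells the replication ratio was 0.76 with the gate on thinned cells and the mitosis ratio -1.41 with free RNA subtracted. The other 3 of these 4 were mesenchymal replication genes (0.0022) and cDC1 mitosis genes (-0.061) with no doublets removed, and cDC2 mitosis genes with clusters (-0.024). The cause of these shifts was not tested.

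Leaving out the top cell of each library, the minimum of 30 positive cells and cDC1 in the comparison of other genes were chosen after seeing the data. No paired analysis was possible because each condition is 1 library. Leaving out a replicate was not possible for the same reason. Counting intervals cover neither mice nor preparations, and in the smaller classes the mitosis sums rest on few cells.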
